A study of Mus musculus with 24 samples.

Results

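Transcripts of normal mouse yolk sacs and embryos at embryonic day 9.5 (E9.5) were compared. Of the 24 libraries of the series, 8 were taken by their titles: 4 of yolk sac and 4 of embryo, all wild type (WT) for Cmtr2, the cap methyltransferase gene whose knockout the series studies. They are littermate controls of that knockout and carry no other named allele or treatment, and the strain, dissection and sex are not given in the labels. Per the series' own description the E9.5 samples came from 4 litters, but which litter gave which library is unknown here. Whether a yolk sac and an embryo with the same replicate number came from 1 conceptus is not stated, and the p-values therefore measure the spread between these libraries. Total RNA was extracted with TRIzol and sequenced by a service, per the labels' protocols.

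The mouse yolk sac surrounds the embryo and serves as its first organ of nutrition. Its outer layer, the visceral endoderm, is a polarised epithelium that takes up maternal proteins through an endocytic receptor complex, breaks them down in large lysosomes and secretes plasma proteins and lipoproteins, tasks that the liver and gut assume later. Its inner layer, the extraembryonic mesoderm, forms vessels and blood islands in which primitive red cells and early macrophages arise.

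Values are scaled FPKM (fragments per length of exon and per depth of the library, divided by a median-of-ratios factor per library), in the order of replicates 1 to 4. Each library held 16872680 to 21147220 fragments, as recovered from the FPKM steps. Differences are log2 fold changes of yolk sac minus embryo, on log2(FPKM + 0.5), with the standard error (SE) and the Benjamini-Hochberg adjusted p of limma over all tested genes. A gene was called at an adjusted p under 0.05 and a difference of at least 2-fold. In bulk tissue, fewer cells of a type and less RNA per cell cannot be told apart.

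The genotype tag of the labels names the opposite of the title in all 24 libraries, and Cmtr2 itself followed the titles. It was at 3.19, 3.73, 3.47 and 4.0 FPKM as deposited in WT yolk sacs and 3.8, 3.84, 3.57 and 2.62 in WT embryos, while the knockout libraries of the same tables held 0.0765 to 0.711 FPKM. Between the WT tissues it was not called (0.18, SE 0.15, adjusted p = 0.308). Y-linked genes were read in yolk sacs 1 and 2 and embryos 1 and 3, so 2 of 4 libraries of each tissue were male by these genes, and same-numbered libraries differed in sex at numbers 2 and 3. In embryo 4 the Y-linked genes were at 0 and Xist, the RNA of the inactive X (12.7 percent shared), was at 0.256 scaled FPKM.

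The libraries differ in a way that touches the comparison. Yolk sac and embryo values come from separate tables of the authors, so tissue cannot be told apart from table or from any batch that went with it. Of 563 tested processed pseudogenes, which are copies of mRNAs inserted in the genome, 351 (62.3 percent) were called higher in yolk sacs and 34 higher in embryos. Rpl17-ps3 (90.3 percent shared), a copy of the ribosomal protein gene Rpl17, had 379.7, 358, 376 and 274 in yolk sacs, against 9.69, 4.8, 8.09 and 3.99 in embryos, whereas Rpl17 itself (46.1 percent shared) had 99, 209.9, 247 and 174 in yolk sacs, against 1317, 1096, 950.3 and 979 in embryos. The copy was high and its parent low in every yolk sac, with no overlap for either. Gapdh, a glycolytic enzyme that nearly all cells express, had 5.11, 4.77, 2.3 and 2.56 in yolk sacs, against 1054, 748, 1134 and 916 in embryos. Every yolk sac lay more than 100-fold below every embryo for Gapdh, 28.1 percent of whose 31-base words also occur in transcripts of other genes. Hsp90aa1, a chaperone (51.5 percent shared), was split within the embryo table, with 578, 592, 589 and 567 in yolk sacs, against 263, 362, 7.55 and 7.68 in embryos. Its call was lost without embryo 3 (2.65, adjusted p = 0.0627) or embryo 4 (2.66, adjusted p = 0.0592), and it was 4.31 without embryo 1 and 4.49 without embryo 2. The ribosomal protein gene Rpl12 (19.8 percent shared) was split the same way. It had 417 and 264 in embryos 1 and 2, but 14.8 in embryo 3 and about the same in embryo 4. The short RNA Gm23935 (100 percent shared) had 14985, 70284, 358 and 1225 in embryos 1 to 4. Gapdh, Rpl17 and Rpl17-ps3 showed no such split of this size. The cause of the split was not tested. Values of genes with near-identical copies therefore cannot be compared between these tables, and whether reads were assigned differently in them was not tested. Among the 9496 tested genes sharing under 10 percent of their 31-base words with other genes, 20.5 percent were called higher in yolk sacs and 14.5 percent higher in embryos. Named genes lie under that limit unless a percent shared stands beside them.

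**Figure D1:**
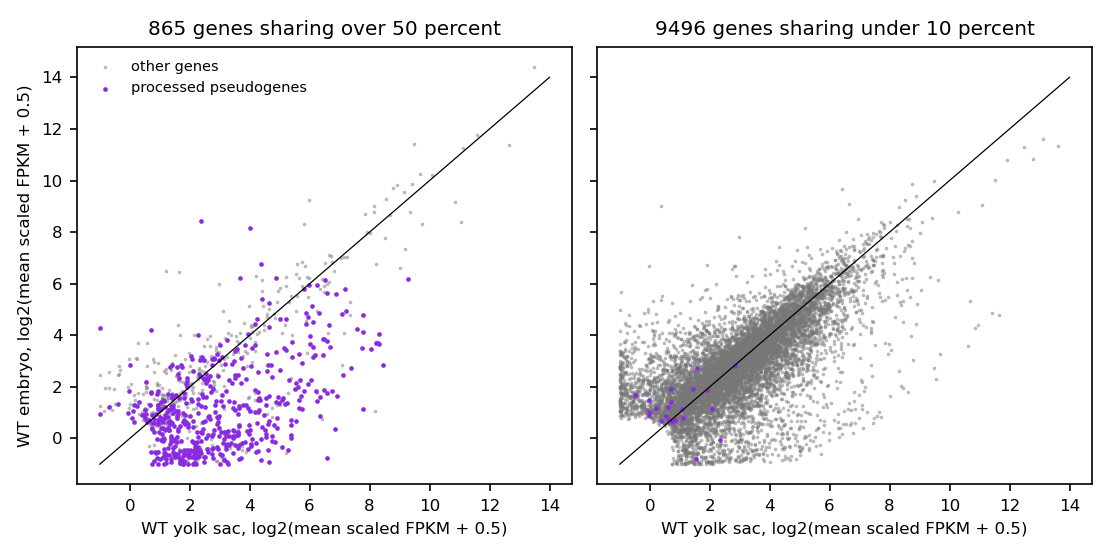
Mean level of each tested gene in WT yolk sacs (horizontal) and WT embryos (vertical), on log2(scaled FPKM + 0.5), for genes sharing over 50 percent (left) or under 10 percent (right) of their 31-base words with transcripts of other genes; the line marks equal levels. Processed pseudogenes fill the lower right of the left panel, where 47.1 percent of 865 genes were called higher in yolk sacs.

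The embryo libraries also differed among themselves. Myl7, a light chain of atrial muscle myosin, had 2.46, 191, 4.92 and 206 scaled FPKM in embryos 1 to 4, and T (brachyury), a marker of the tail bud, had 0.489, 13.1, 1.17 and 17.2. Both genes were low in embryos 1 and 3. Hoxb9, a Hox gene of the trunk, had 0.0837, 14, 52.7 and 53.7 and was near 0 in embryo 1 alone among the embryos. Among named genes that were called and could still be tested without embryos 1 and 3, Hand1, Hsd17b7, Ebp, Cldn4, Pltp, Tek and Igf2r lost the call. The visceral endoderm, apolipoprotein, plasma protein, endocytic and lysosome lists had the same number called higher in yolk sacs with and without these embryos. Most neural, crest and somite genes left the test with these embryos, because 2 remaining embryos cannot meet a filter of 4 libraries.

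Of 12609 tested genes, 2729 (21.6 percent) were called higher in yolk sacs and 1737 (13.8 percent) higher in embryos, and the median log2 fold change of all tested genes was 0.06. The groups did not overlap for 4396 of the 4466 called. With 4 libraries a tissue, a call at 2-fold nearly requires this, so non-overlap of a called gene adds little to its call. The split depends on scaling: 2238 genes were called higher in yolk sacs and 2426 in embryos after rescaling to TPM, in which every library sums to the same total, which moved the median to -0.21. Quantile normalization gave 2374 and 2177, with a median of -0.14. A gene silent in 1 tissue could be tested only if the other held it at 1 FPKM or more in all 4 libraries, so the counts below describe the tested members and are no support of their own.

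**Figure D2:**
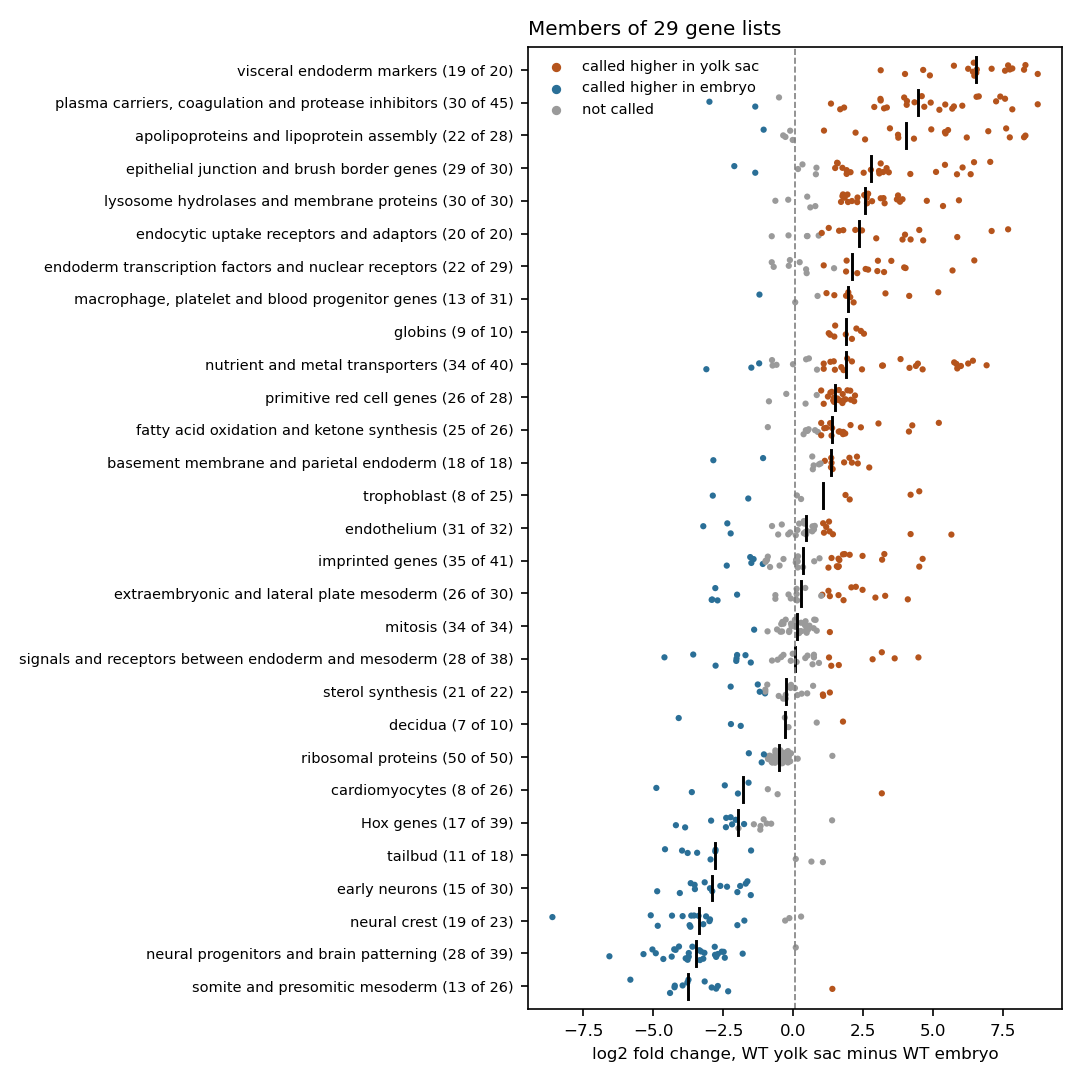
Log2 fold change, WT yolk sac minus WT embryo, of each tested member of 29 gene lists, with the median of each list (black bar) and of all tested genes (dashed line); numbers in brackets are tested of listed members. Visceral endoderm markers lie farthest right, at a median of 6.56, and somite, neural and neural crest lists farthest left, at -3.74, -3.48 and -3.38.

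Visceral endoderm genes were the most yolk sac-enriched of the lists by median. Of 20 listed markers, 19 passed the filter and 19 of these were called higher in yolk sacs, with a median log2 fold change of 6.56. Apoa1, the main protein of high-density lipoprotein (ENSMUSG00000032083, GRCm38 chromosome 9, 46228580 to 46230466, plus strand), had 2081, 2714, 3553 and 2657 in yolk sacs, against 0, 81.3, 3.8 and 29 in embryos. Afp, alpha-fetoprotein, the main fetal plasma protein (ENSMUSG00000054932, GRCm38 chromosome 5, 90490737 to 90508907, plus strand), had 2051, 3081, 4870.1 and 2840.2 in yolk sacs, against 0, 91.8, 3.1 and 14.4 in embryos. Both were more than 20-fold higher in every yolk sac than in embryo 2, the highest embryo, and at 0 in embryo 1. The log2 fold change was 8.32 for Apoa1 (SE 1.28, adjusted p = 0.000228) and 8.76 for Afp (SE 1.26, adjusted p = 0.000147). Ttr, transthyretin, which carries thyroid hormone (ENSMUSG00000061808, GRCm38 chromosome 18, 20665280 to 20674321, plus strand), had 1631, 1863, 2161 and 1767 in yolk sacs, against 0.663, 51.1, 2.54 and 22 in embryos, with the groups again far apart (7.85, SE 0.99, adjusted p = 5.77e-05). Apoa4, an apolipoprotein of chylomicrons (ENSMUSG00000032080, GRCm38 chromosome 9, 46240696 to 46243459, plus strand), had 249, 266, 333 and 301 in yolk sacs, against 0, 5.22, 0.24 and 0.931 in embryos and did not overlap either (7.76, SE 0.61, adjusted p = 1.91e-06, 64.5 percent shared). Spink1, a trypsin inhibitor (6.56), and S100g, a calcium-binding protein of gut and yolk sac outside the list (8.31), were among the abundant ones. Without embryo 1 they were 5.74 and 7.18. Leaving out 1 embryo kept these calls and moved the value: without embryo 1 it was 6.92 for Apoa1, 7.46 for Afp and 6.89 for Ttr. Without embryo 2 it was 9.4 for Apoa1, 9.99 for Afp, 8.74 for Ttr and 8.46 for Apoa4. The only listed marker that failed the filter was Npc1l1, a cholesterol transporter, narrowly, at 3.74, 1.0, 1.07 and 1.58 in yolk sacs, against 0.0844, 0, 0.0866 and 0 in embryos.

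**Figure D3:**
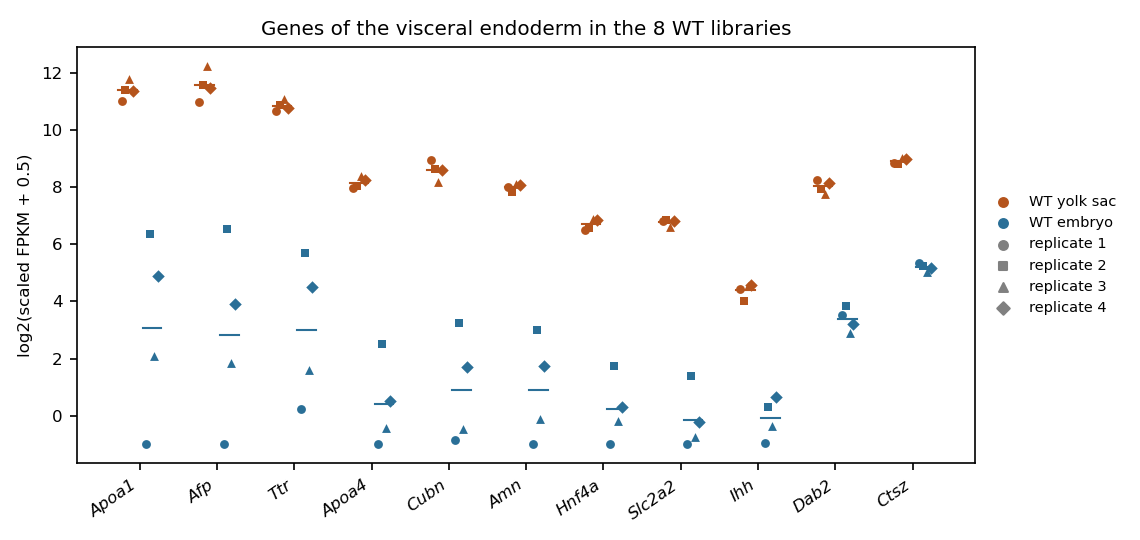
Levels of 11 genes of the visceral endoderm in the 4 WT yolk sac libraries (left of each pair) and the 4 WT embryo libraries (right), on log2(scaled FPKM + 0.5); symbols mark the replicate and bars the mean. All yolk sac points lie above all embryo points for each gene, and embryo 2 (squares) is the highest embryo for most of them while embryo 1 (circles) is the lowest for the first 9.

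Letters of 3 promoters of visceral endoderm genes are shown because these genes move together: that of Afp, the main fetal plasma protein, that of Hnf4a, a regulator of this tissue described below, and that of Apoa1. RefSeq gives promoters for 16 of 20 markers in build GRCm38.p6, and the 250 bases before the annotated start, on the strand of the gene, are printed 5′ to 3′. Capitals mark a TATA box (TATAAA) in Afp and the motif AGATAA of GATA factors in Hnf4a. The Afp sequence is chr5:90490464-90490713, that of the first Hnf4a start chr2:163506607-163506856 and that of Apoa1 chr9:46228380-46228629, all on the plus strand.
Afp: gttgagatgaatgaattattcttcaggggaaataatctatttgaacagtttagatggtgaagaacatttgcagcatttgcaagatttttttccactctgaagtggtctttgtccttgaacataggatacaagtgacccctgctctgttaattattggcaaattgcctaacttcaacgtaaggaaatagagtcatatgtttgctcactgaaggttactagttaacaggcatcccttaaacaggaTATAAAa
Hnf4a: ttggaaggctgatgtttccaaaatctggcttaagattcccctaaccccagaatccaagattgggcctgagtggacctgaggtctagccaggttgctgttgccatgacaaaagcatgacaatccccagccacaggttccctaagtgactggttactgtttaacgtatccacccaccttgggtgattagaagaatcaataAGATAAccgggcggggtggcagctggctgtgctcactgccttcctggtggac
Apoa1: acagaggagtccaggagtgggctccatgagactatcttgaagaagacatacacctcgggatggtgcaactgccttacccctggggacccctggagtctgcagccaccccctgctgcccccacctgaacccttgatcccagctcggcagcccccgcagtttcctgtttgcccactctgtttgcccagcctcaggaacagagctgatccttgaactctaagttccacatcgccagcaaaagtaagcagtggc
The TATA box lies at bases -7 to -2 from the RefSeq start of Afp, and the GATA motif at -52 to -47 from the first RefSeq start of Hnf4a. These starts differ from the gene starts of GENCODE. The Afp stretch ends at 90490713, before its gene start at 90490737. The Apoa1 stretch runs past its gene start at 46228580, and that of Hnf4a past 163506808. Apoa1 holds none of the motifs searched, which also included CAAAGTCCA for HNF4, each on both strands. The TATA box was in 3 of 20 marker promoters, of Afp, Apob and Rbp4 (15 percent), and in 12.4 percent of all 32851 promoters. For the GATA motif the values were 5.0 and 9.99 percent. The HNF4 motif was in none of the marker promoters and in 0.384 percent of all. These matches describe letters and not sites in use.

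Genes for secreted plasma proteins were among the most abundant transcripts of the yolk sac. Among the 20 highest genes outside the mitochondrial genome were Afp, Apoa1, Rbp4, Ttr and Apoe. Others of the 20 were the embryonic globins Hbb-y, Hbb-bh1 and Hba-x, the imprinted RNA H19, the ferritin gene Fth1 and the calcium-binding S100g. The genes with the largest differences toward the yolk sac also included the carbonic anhydrase Car7 (7.23, SE 0.46, adjusted p = 4.02e-07) and the secreted phosphoprotein Spp2 (7.52, SE 0.87, adjusted p = 2.89e-05). Rbp4, the retinol carrier of plasma, had 1705, 1875, 2366 and 2036 in yolk sacs, against 1.33, 54.2, 4.4 and 22.4 in embryos, and the groups did not overlap (7.59, SE 0.87, adjusted p = 2.72e-05). Its value was 6.73 without embryo 1 and 8.39 without embryo 2. The apolipoprotein and plasma protein lists together took 3.36 to 4.23 percent of all fragments in yolk sacs and 0.102 to 0.218 percent in embryos.

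Lipoprotein genes were mostly higher in yolk sacs. Of 28 listed, 22 were tested, 17 were called higher in yolk sacs and 1 in embryos, with a median of 4.05. Apob, the structural protein of very low density lipoprotein, had 806, 832, 543 and 778 in yolk sacs, against 0.0425, 13, 0.333 and 4.59 in embryos (8.27, SE 0.86, adjusted p = 1.42e-05). Mttp, which loads lipid onto it, had 122, 106, 98.9 and 116 in yolk sacs, against 1.08, 3.84, 1.49 and 2.68 in embryos (5.44, SE 0.28, adjusted p = 1.12e-07). Each stood far above all embryos in all 4 yolk sacs, and Apob was 7.54 without embryo 1 and 9.1 without embryo 2. Also called higher in yolk sacs were Apoa2 (6.99) and Apom (7.63), both of high-density lipoprotein. Apoa2 was 7.69 without embryo 2, and Apom 6.98 without embryo 1 and 8.37 without embryo 2. Apoa1, Apoc3, Apoa4 and Apoa5 lie within 43.3 kb of chromosome 9 and all were called, from 3.76 for Apoa5 (18.4 percent shared) to 8.32 for Apoa1. Levels within the cluster were unequal: Apoa1 averaged 2751 scaled FPKM in yolk sacs, Apoc3 21.4 and Apoa5 7.09. In the Apoe cluster on chromosome 7, Apoe averaged 1659 and Apoc1 55.2 in yolk sacs, and Apoc2 (78.8 percent shared) was uneven among them, at 6.15, 4.62, 0.22 and 0.574 in yolk sacs, against 0, 0.0566, 0 and 0 in embryos. Not called were the scavenging receptor Lrp1 (-0.01, SE 0.31, adjusted p = 0.97), the triglyceride enzyme Dgat1 (-0.10, SE 0.13, adjusted p = 0.532) and the lipase Lpl (-0.27, SE 0.21, adjusted p = 0.286). The member called higher in embryos was Pltp, a phospholipid transfer protein (-1.05, SE 0.15, adjusted p = 0.000164, 13.9 percent shared), which fell under the 2-fold limit without embryo 3 (-0.95).

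Plasma carriers, clotting factors and protease inhibitors made up a list of 45, of which 30 were tested, 27 were called higher in yolk sacs and 2 in embryos (median 4.48). The fibrinogen genes Fga, Fgb and Fgg, which encode the chains of the clot, are neighbours within 42.1 kb of chromosome 3. Fga had 161, 199, 236 and 175 in yolk sacs, against 0, 4.86, 0.161 and 0.386 in embryos (7.42, SE 0.62, adjusted p = 2.75e-06). Fgb had 98.7, 117, 132 and 108 in yolk sacs, against 0.0848, 3.07, 0.127 and 0.776 in embryos (6.65, SE 0.49, adjusted p = 1.12e-06), and Fgg had 143, 178, 226 and 161 in yolk sacs, against 0, 4.26, 0.162 and 0.555 in embryos (7.27, SE 0.58, adjusted p = 2.14e-06). None overlapped between the tissues. Without embryo 2, Fga was 8.16 and Fgg 7.95. Prothrombin (F2), factor X (F10), plasminogen (Plg, 10.7 percent shared) and antithrombin (Serpinc1, 35.6 percent shared) averaged 19, 21.4, 29.8 and 4.77 scaled FPKM in yolk sacs and 0.146, 0.612, 0.314 and 0.0979 in embryos, and all 4 were called higher in yolk sacs. So was Serpinf2, the plasmin inhibitor (6.57), whereas Serping1, the complement C1 inhibitor, was not called (-0.50). Alb, albumin, the neighbour of Afp on chromosome 5 and the main plasma protein after birth, was close to 0, at 0.182, 0.203, 0.638 and 0.111 in yolk sacs, against 0, 0.373, 0 and 0 in embryos. It failed the filter, as did the adult liver genes Apoh (beta-2 glycoprotein), Ahsg, Hpx and Hp. On the FPKM scale, which is per length, Afp exceeded Alb in every yolk sac by far. Higher in embryos were Serpinf1, pigment epithelium-derived factor (-2.99, SE 0.29, adjusted p = 8.24e-06), and Vtn, vitronectin (-1.35, SE 0.33, adjusted p = 0.00424), whose groups overlapped.

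Most listed genes for taking up and degrading protein were called higher in yolk sacs. Cubn (cubilin) and Amn (amnionless) form the receptor complex of the endoderm surface. Cubn had 492, 403, 291 and 385 in yolk sacs, against 0.0469, 8.9, 0.217 and 2.77 in embryos (7.7, SE 0.77, adjusted p = 1e-05). Amn had 259, 229.9, 276 and 267 in yolk sacs, against 0, 7.42, 0.42 and 2.81 in embryos (7.11, SE 0.71, adjusted p = 9.95e-06). Every embryo lay more than 10-fold below every yolk sac for both genes. Without embryo 1, Cubn was 7.08 and Amn 6.45, and without embryo 2 they were 8.47 and 7.8. Lrp2, megalin, which works with cubilin, had 70.8, 61.8, 47.4 and 56.3 in yolk sacs, against 4.72, 4.77, 1.05 and 3.67 in embryos (4.01, SE 0.35, adjusted p = 4.07e-06), and its adaptor Dab2 had 303, 247, 219 and 287 in yolk sacs, against 10.9, 13.8, 7.01 and 8.85 in embryos (4.66, SE 0.20, adjusted p = 4.11e-08). Of 20 listed uptake genes, all tested, 15 were called higher in yolk sacs and none in embryos (median 2.35). The folate receptor Folr1, the vitamin B12 carrier Tcn2 and the immunoglobulin receptor Fcgrt were called, at 5.88, 3.92 and 4.52. Both Lrp2 and Dab2 were clear of the embryos, where they were present in all 4 libraries. Among general parts of the endocytic route the clathrin heavy chain Cltc was called (2.47, SE 0.19, adjusted p = 1.45e-06), as was the recycling protein Ehd1 (1.8, SE 0.13, adjusted p = 1.01e-06), whereas the light chain Clta (0.52, SE 0.14, adjusted p = 0.0072), the adaptor Ap2a1 (-0.16, SE 0.15, adjusted p = 0.368, 16.8 percent shared) and the early endosome GTPase Rab5a (0.50, SE 0.13, adjusted p = 0.0062) were not. Cd320, the receptor for B12 bound to its carrier, was not called (-0.76, SE 0.17, adjusted p = 0.00262), but was called higher in embryos after rescaling to TPM (-1.03).

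Among lysosomal genes, 25 of 30 tested were called higher in yolk sacs and none in embryos, with a median of 2.59. Ctsz, a cathepsin, had 455, 449.8, 526 and 514 in yolk sacs, against 40.5, 36.9, 32.3 and 35.9 in embryos, a narrow spread in both tissues with no overlap (3.72, SE 0.11, adjusted p = 1.19e-08). Lgmn, legumain, a protease that matures cathepsins, had 484, 409, 354 and 416 in yolk sacs, against 12.2, 21.1, 10.2 and 16.4 in embryos (4.79, SE 0.21, adjusted p = 4.73e-08). Both proteases were high in all yolk sacs. The cathepsins Ctsl and Ctsb, the membrane protein Lamp1 and the hexosaminidase subunit Hexa were called as well: Ctsl (3.83, 28.2 percent shared), Ctsb (3.76, 13.0 percent shared), Lamp1 (2.3) and Hexa (3.24, 11.4 percent shared). Tfeb, a transcription factor of lysosomal genes, had 8.17, 7.2, 7.6 and 8.24 in yolk sacs, against 0.418, 0.69, 0.264 and 0.438 in embryos and was called (3.14, SE 0.16, adjusted p = 1e-07). Npc1, which exports cholesterol from lysosomes, was called (2.31, SE 0.13, adjusted p = 1.69e-07) while its partner Npc2 fell short of the 2-fold limit (0.80, SE 0.12, adjusted p = 0.000158). Psap (0.62, SE 0.14, adjusted p = 0.0034), Gusb (-0.63, SE 0.12, adjusted p = 0.00113) and Gla (0.51, SE 0.21, adjusted p = 0.0486), all of glycolipid or glycan breakdown, were not called.

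Transporters of sugars, amino acids and metals were higher in part. Of 40 listed, 34 were tested, 24 called higher in yolk sacs and 3 in embryos (median 1.88). Slc2a2, the glucose transporter of liver and gut, had 113, 116, 98.1 and 111 in yolk sacs, against 0, 2.13, 0.0924 and 0.349 in embryos (6.93, SE 0.43, adjusted p = 3.76e-07), and Slc2a3, another glucose transporter, had 800.5, 630.2, 470.1 and 715 in yolk sacs, against 75.1, 79.5, 35.2 and 113 in embryos (3.19, SE 0.32, adjusted p = 9.8e-06). Slc7a9, the light chain of the cystine transporter, had 39.6, 50.1, 48.1 and 44.9 in yolk sacs, against 0.221, 0.653, 0.217 and 0.178 in embryos (5.85, SE 0.18, adjusted p = 1.19e-08). All 3 were higher in every yolk sac than in any embryo. The monocarboxylate carrier Slc16a1 and the widespread glucose transporter Slc2a1 were also called, at 3.22 and 1.34. The heavy chain partner of Slc7a9, Slc3a1 (25.5 percent shared), failed the filter. Slc39a4, a zinc importer, and Slc40a1, ferroportin, the iron exporter, were called at 5.77 and 4.4. Fth1, the ferritin heavy chain, had 1290.3, 982, 1495 and 1182 in yolk sacs, against 558, 360.3, 467 and 374 in embryos (1.5, SE 0.19, adjusted p = 5.67e-05), and Mt1, the zinc-binding metallothionein, had 283, 501, 768 and 339.7 in yolk sacs, against 26.5, 23.8, 26.7 and 8.13 in embryos (4.47, SE 0.41, adjusted p = 5.57e-06). The groups were apart for both metal-binding genes, with embryo 4 lowest for Mt1. Stra6, a receptor for Rbp4, was higher in embryos, at 0.167, 0.0817, 0.184 and 0.223 in yolk sacs, against 4.68, 4.09, 7.14 and 5.19 in embryos (-3.1, SE 0.18, adjusted p = 2.59e-07), as were the glutamine transporter Slc1a5 (-1.49, SE 0.16, adjusted p = 1.72e-05) and the copper oxidase Heph (-1.21, SE 0.19, adjusted p = 0.000245). Slc7a5, a carrier of large amino acids, was not called (0.00, SE 0.21, adjusted p = 0.989), nor were the amino acid transporters Slc38a2 (-0.59, SE 0.10, adjusted p = 0.000565) and Slc38a4 (-0.75, SE 0.29, adjusted p = 0.0433) and the iron transporter Slc11a2 (0.86, SE 0.13, adjusted p = 0.000198). Slc38a4 was called higher in embryos after rescaling to TPM (-1.02) and under quantile normalization (-1.02).

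Regulators of endoderm were called higher in yolk sacs or in neither tissue. Of 29 listed transcription factors and nuclear receptors, 22 were tested, 14 were called higher in yolk sacs and none in embryos (median 2.11). Hnf4a, a nuclear receptor of liver, gut and visceral endoderm, had 90.9, 94.2, 118 and 116 in yolk sacs, against 0, 2.86, 0.381 and 0.743 in embryos (6.49, SE 0.47, adjusted p = 9.82e-07). Every yolk sac exceeded every embryo. Foxa2, which also marks the floor plate, node and gut of the embryo, had 16.7, 15.6, 19.2 and 16.7 in yolk sacs, against 2.93, 3.34, 6.29 and 4.68 in embryos (1.92, SE 0.20, adjusted p = 1.49e-05), while Foxa1 was not called (-0.69, SE 0.29, adjusted p = 0.0589). Foxa3, the relative most used in liver, had 9.73, 13, 18.3 and 13.2 in yolk sacs, against 0.0793, 0.655, 0.19 and 0.751 in embryos (3.98, SE 0.28, adjusted p = 8.03e-07). Creb3l3, a membrane-bound factor of apolipoprotein genes in liver, was called (5.71, SE 0.32, adjusted p = 2.05e-07). Gata4 had 26.3, 24.1, 23.7 and 25.6 in yolk sacs, against 0.193, 10.2, 2.39 and 10.8 in embryos, uneven among embryos (2.69, SE 0.75, adjusted p = 0.00945; 1.82 without embryo 1), and Gata6 had 6.0, 4.51, 6.07 and 4.91 in yolk sacs, against 1.21, 5.89, 2.97 and 7.28 in embryos and overlapped (0.49, SE 0.40, adjusted p = 0.307). Hhex (-0.11, SE 0.24, adjusted p = 0.697) and Rxra (-0.15, SE 0.21, adjusted p = 0.548) were not called. Cebpa, a factor of mature liver, had 0.555, 3.16, 15.2 and 4.17 in yolk sacs, against 1.8, 0.908, 0.844 and 0.621 in embryos, with yolk sac 3 high, and was not called (1.47, SE 0.66, adjusted p = 0.0731), but was called without yolk sac 1 (2.13, adjusted p = 0.00347). The stress factors Xbp1 and Cebpb were called, with Xbp1 (1.9) and Cebpb (3.04, 19.6 percent shared).

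Epithelial junction and brush border genes gave 23 called higher in yolk sacs and 2 in embryos of 29 tested (median 2.79). Vil1, villin of the microvillus core, had 88.4, 90.3, 89.7 and 103 in yolk sacs, against 0.0152, 2.6, 0.123 and 1.14 in embryos (6.36, SE 0.49, adjusted p = 1.49e-06), and Cldn2, a claudin that forms pores for cations, had 98.2, 100, 102 and 111 in yolk sacs, against 0.0486, 2.63, 0.305 and 0.81 in embryos (6.48, SE 0.43, adjusted p = 5.98e-07). Both were high in all yolk sacs and near 0 in embryos 1 and 3. Lgals2, a galectin of gut epithelium, was higher in yolk sacs by 7.06, and the membrane linkers Ezr and Slc9a3r1 by 3.09 and 3.35. The simple-epithelium keratins gave Krt8 (2.06, 36.0 percent shared) and Krt18 (2.53, 11.4 percent shared). Cdh1, E-cadherin, differed by 3.23 and Epcam by 1.92, with embryo means of 12.2 and 23.8. Claudins were divided: Cldn6 was called higher in yolk sacs (3.14, SE 0.16, adjusted p = 1.33e-07), Cldn4 (-1.35, SE 0.39, adjusted p = 0.0107) and Cldn9 (-2.1, SE 0.19, adjusted p = 6.03e-06) higher in embryos, and Cldn3 in neither (0.34, SE 0.31, adjusted p = 0.354). Cldn4 fell under the limit without yolk sac 1 (-0.97).

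Genes of fatty acid oxidation were largely called higher in yolk sacs. Of 25 tested genes of fatty acid oxidation and ketone synthesis, 18 were called higher in yolk sacs and none in embryos (median 1.38). Acadm, a mitochondrial dehydrogenase of medium chains, had 30.1, 32.4, 37.8 and 35.4 in yolk sacs, against 4.11, 7.58, 5.81 and 6.41 in embryos (2.43, SE 0.17, adjusted p = 7.57e-07). All 4 yolk sacs were far above all embryos. Other called members were Acaa2 (1.8), Acaa1a (2.06, 23.4 percent shared) and Hadh (1.33). Hadha, of the mitochondrial trifunctional protein, was among those not called (0.52, SE 0.13, adjusted p = 0.00578). Among 21 tested sterol synthesis genes, 3 were called higher in yolk sacs and 4 in embryos, and 14 were in neither group (median -0.26). These were 14.3 and 19 percent of the list, near the 21.6 and 13.8 percent of all tested genes. Without embryos 1 and 3 the counts were 1 and 6. Ebp (1.08, SE 0.13, adjusted p = 3.74e-05) and Hsd17b7 (1.32, SE 0.18, adjusted p = 9.71e-05), enzymes of late steps, were higher in yolk sacs, whereas Cyp51 (-1.19, SE 0.22, adjusted p = 0.0009) and the feedback regulator Insig1 (-1.26, SE 0.29, adjusted p = 0.00337) were higher in embryos. Ebp fell under the 2-fold limit with FPKM as deposited (0.94), after rescaling to TPM (0.81), under quantile normalization (0.86) and with array weights (0.99). Without embryos 1 and 3, Ebp (1.0) and Hsd17b7 (0.97) lay just under the limit. Srebf2, the sterol-sensing factor, was not called (0.16, SE 0.16, adjusted p = 0.38), nor was Fdft1 (0.51, SE 0.14, adjusted p = 0.00958, 31.9 percent shared).

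In each embryo library, visceral endoderm markers stood at a low fraction of the yolk sac mean that differed between the libraries. Over the 20 markers the median fraction was 0.0511 percent in embryo 1, 2.81 percent in embryo 2, 0.283 percent in embryo 3 and 1.11 percent in embryo 4. In embryo 2 the lower and upper quartiles of the markers were 2.34 and 3.23 percent, and in embryo 1, 7 markers were at 0. Lrp2, Dab2 and Cldn6 stood above these fractions in every embryo, and their levels did not follow that order: Lrp2 had 4.72, 4.77, 1.05 and 3.67, Dab2 10.9, 13.8, 7.01 and 8.85 and Cldn6 42.8, 39.5, 27.8 and 47.8 in embryos 1 to 4. The source of marker transcripts in embryos was not tested.

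**Figure D4:**
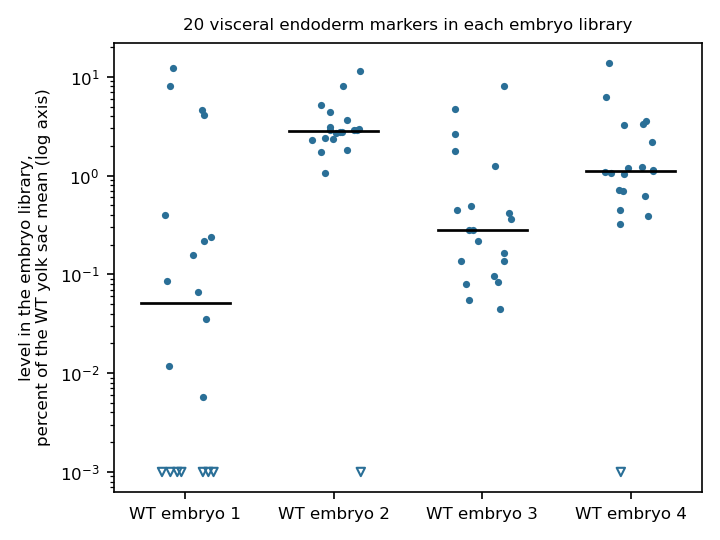
Level of each of 20 visceral endoderm markers in each WT embryo library, as a percent of its mean in WT yolk sacs (log axis); open triangles mark markers at 0, drawn at the bottom, and bars the median. Medians ran from 0.0511 percent in embryo 1 to 2.81 percent in embryo 2.

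Red cell transcripts were higher in yolk sacs. All 9 tested globins of 10 listed were called higher in yolk sacs (median 1.89). Hbb-y, an embryonic beta-type chain, had 5981, 11742, 24220.0 and 7762 in yolk sacs, against 1794, 2239.8, 3773 and 2522 in embryos (2.11, SE 0.42, adjusted p = 0.00134). Hba-x, the embryonic zeta chain, had 5171, 5731, 12537 and 4678 in yolk sacs, against 1589, 1107, 2704 and 1909.7 in embryos (1.89, SE 0.36, adjusted p = 0.00102). Yolk sac 3 was the highest for both, and the groups did not overlap. Under quantile normalization neither was called, at 0.88 for Hbb-y and 0.75 for Hba-x. With no filter on low values 7 of the 10 globins were called, and Hbb-y was not (adjusted p = 0.0567). The adult alpha copies gave Hba-a1 (2.54, 75.5 percent shared) and Hba-a2 (2.43, 92.6 percent shared). The adult beta genes Hbb-bs and Hbb-bt (54.4 and 59.4 percent shared) were far lower, at means of 58.1 and 17.6 in yolk sacs, and Hbb-bs fell just under the limit without yolk sac 2 (0.99). Of 28 listed red cell genes, 26 were tested and 22 called higher in yolk sacs, none in embryos (median 1.5). Gata1, the red cell regulator, had 13.6, 10, 18.2 and 8.55 in yolk sacs, against 3.31, 2.43, 5.53 and 4.03 in embryos (1.59, SE 0.27, adjusted p = 0.000417), and Klf1 had 28.6, 31.7, 40.2 and 19.8 in yolk sacs, against 6.55, 5.5, 11.8 and 9.18 in embryos (1.82, SE 0.26, adjusted p = 0.000133). Fech, the last enzyme of haem synthesis (2.05, SE 0.15, adjusted p = 9.05e-07), and the anion exchanger Slc4a1 (1.78, SE 0.24, adjusted p = 7.98e-05) were called as well. Lmo2 (-0.24, SE 0.26, adjusted p = 0.436) and Zfpm1 (0.45, SE 0.27, adjusted p = 0.164), partners of Gata1 that also act elsewhere, were not. The haem enzyme Alas2 and the mitochondrial iron carrier Slc25a37 were called: Alas2 (1.53, 13.1 percent shared) and Slc25a37 (1.67).

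Macrophage genes were uneven in level in yolk sacs, from near 0 for some to a mean of 27.9 scaled FPKM for Fcgr3. Of 31 listed macrophage, platelet and progenitor genes, 13 passed the filter, 10 were called higher in yolk sacs and 1 in embryos (median 1.98). Csf1r, the receptor of the macrophage growth factor, had 1.61, 2.24, 3.66 and 1.82 in yolk sacs, against 0.132, 0.122, 0.406 and 0.151 in embryos (1.98, SE 0.24, adjusted p = 4.05e-05, 14.9 percent shared), and Cd68, of macrophage lysosomes, was called (2.17, SE 0.23, adjusted p = 1.55e-05). Pf4, platelet factor 4, had 4.15, 13.9, 37.3 and 9.79 in yolk sacs, against 0.373, 1.6, 1.21 and 0.366 in embryos (3.31, SE 0.56, adjusted p = 0.000465). All yolk sacs were above all embryos for these genes, and yolk sac 3 was the highest for Pf4. The immunoglobulin receptor Fcgr3, the cytokine receptor Csf2rb and the platelet integrin Itgb3 were called, with Fcgr3 (5.2, 13.4 percent shared), Csf2rb (1.9, 19.7 percent shared) and Itgb3 (1.98). Gata2 was not called (0.08, SE 0.21, adjusted p = 0.767). The pan-leukocyte gene Ptprc, at 0.103, 0.15, 0.127 and 0.034 in yolk sacs, against 0.0323, 0.0251, 0 and 0.0144 in embryos, and the mature macrophage gene Adgre1, at 0, 0.092, 0.0922 and 0.032 in yolk sacs, against 0, 0.0142, 0 and 0 in embryos, were at or near 0 in both tissues. Kit, the receptor for stem cell factor, was higher in embryos, at 1.36, 0.896, 1.38 and 1.08 in yolk sacs, against 3.64, 2.76, 2.75 and 4.32 in embryos (-1.2, SE 0.18, adjusted p = 0.000187), but fell just under the 2-fold limit with a pseudocount of 1 (-0.99).

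Of 31 tested endothelial genes, 8 were called higher in yolk sacs, 3 in embryos and 20 in neither (median 0.47). The share called in neither tissue was 64.5 percent, near the 64.6 percent of all tested genes. The general markers Cdh5 (0.47, SE 0.21, adjusted p = 0.0673), Pecam1 (0.70, SE 0.16, adjusted p = 0.00287) and Kdr (0.75, SE 0.24, adjusted p = 0.0183) were not called, nor were Ephb4 (-0.40), Cldn5 (0.39) and Aplnr (0.22). Lyve1, a hyaluronan receptor of lymphatic and yolk sac vessels, had 77.5, 51.2, 47.3 and 44.1 in yolk sacs, against 0, 1.37, 0.447 and 0.94 in embryos (5.67, SE 0.37, adjusted p = 4.69e-07). Stab2, a scavenger receptor of sinusoidal vessels, had 19.3, 11.9, 8.58 and 7.99 in yolk sacs, against 0.0246, 0.357, 0.0276 and 0.187 in embryos (4.21, SE 0.28, adjusted p = 5.73e-07). Mrc1, the mannose receptor of such vessels and of macrophages, is counted in the macrophage list and not among the 31. It had 13.7, 12.1, 9.08 and 7.44 in yolk sacs, against 0.00845, 0.188, 0.0152 and 0.232 in embryos (4.16, SE 0.22, adjusted p = 1.3e-07). These 3 genes were at most 1.37 in embryos. Other endothelial genes called higher in yolk sacs were Stab1 (1.43), Tek (1.29) and Plvap (1.19). Plvap fell under the 2-fold limit after rescaling to TPM (0.91) and under quantile normalization (0.90), and Tek without embryos 1 and 3 (0.68). Higher in embryos were Efnb2, which marks arteries but also somites (-2.35, SE 0.14, adjusted p = 2.87e-07), and Nr2f2, which marks veins but also mesenchyme (-2.23, SE 0.16, adjusted p = 1.17e-06). Etv2, an early factor of endothelial fate, was listed at 0 in all 4 yolk sacs and had 3.96, 2.72, 3.69 and 7.05 in embryos.

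Mesoderm and matrix genes moved in both directions. Among 26 tested genes of extraembryonic and lateral plate mesoderm, 11 were called higher in yolk sacs and 5 in embryos (median 0.29, which became -0.08 after rescaling to TPM). The called shares were 42.3 and 19.2 percent, against 21.6 and 13.8 percent of all tested genes. Col1a1, the chain of fibrillar collagen, had 240.1, 245, 404 and 274 in yolk sacs, against 3.69, 66.4, 11.6 and 21 in embryos (4.11, SE 0.67, adjusted p = 0.000345), and Lum, lumican, had 122, 129, 141 and 123 in yolk sacs, against 5.72, 36.1, 9.62 and 12.2 in embryos (3.3, SE 0.43, adjusted p = 7.24e-05). Embryo 2 was the highest embryo for both, below all yolk sacs, and Col1a1 was 3.43 without embryo 1 and 4.79 without embryo 2. Other matrix and mesoderm genes called were Postn (2.95), Col3a1 (2.25) and Hsd11b2 (2.09). Postn was 2.32 without embryo 1 and 3.6 without embryo 2. Hand1, a factor of extraembryonic mesoderm and heart, had 44.4, 30.4, 41.9 and 46.9 in yolk sacs, against 1.86, 22.3, 13 and 24.9 in embryos and was lowest in embryo 1 (1.81, SE 0.63, adjusted p = 0.0283). Its call was lost without yolk sac 1, 3 or 4, at an adjusted p of 0.0555, 0.0553 and 0.0628, and without embryo 1 the value was 1.01. Twist1, of cranial mesenchyme and crest, had 8.99, 7.57, 14.4 and 9.62 in yolk sacs, against 78.6, 86.5, 80.5 and 66.5 in embryos (-2.91, SE 0.18, adjusted p = 3.53e-07), and Msx1 (-2.78, SE 0.22, adjusted p = 1.79e-06), Msx2 (-2.0, SE 0.21, adjusted p = 1.59e-05), Isl1 (-2.89, SE 0.16, adjusted p = 2.04e-07) and Snai1 (-2.7, SE 0.15, adjusted p = 2e-07) were likewise higher in embryos. Pdgfra (-0.63, SE 0.20, adjusted p = 0.0172), Hand2 (-0.16, SE 0.42, adjusted p = 0.757, 17.4 percent shared) and Acta2 (1.01, SE 0.55, adjusted p = 0.135) were not called, although Acta2, smooth muscle actin, was called without embryo 2 (1.39) or embryo 4 (1.41). Without embryos 1 and 3 the counts of the mesoderm list were 6 and 5 of 25 tested, against 2548 and 1011 of all 11533 genes tested then. Of 18 tested basement membrane genes, 11 were called higher in yolk sacs and 2 in embryos (median 1.36), with the collagen chains Col4a1 (2.29, SE 0.12, adjusted p = 1.34e-07) and Col4a2 (1.83, SE 0.13, adjusted p = 9.36e-07) among them, beside Podxl (2.73), Fn1 (2.32), Nid2 (2.11) and Sparc (2.02). The called shares of the basement membrane list were 61.1 and 11.1 percent, so its embryo share was near the 13.8 percent of all tested genes. Perlecan (Hspg2) fell short of the limit (0.71, SE 0.29, adjusted p = 0.0482). Fst, follistatin, was higher in embryos (-2.85, SE 0.25, adjusted p = 3.68e-06).

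The list of signals and receptors between the layers gave 7 called higher in yolk sacs and 8 in embryos of 28 tested, at a median of 0.06, which became -0.16 after rescaling to TPM. The called shares were 25.0 and 28.6 percent, against 21.6 and 13.8 percent of all tested genes, so the yolk sac share was near that of all genes. The hedgehog ligands differed in opposite directions. Ihh, Indian hedgehog, which the visceral endoderm makes, had 21.3, 15.7, 22.9 and 23.6 in yolk sacs, against 0.0177, 0.74, 0.27 and 1.07 in embryos (4.49, SE 0.32, adjusted p = 8.39e-07). Shh, Sonic hedgehog of notochord and floor plate, had 0, 0, 0.021 and 0.20 in yolk sacs, against 6.66, 4.86, 6.76 and 6.04 in embryos (-3.57, SE 0.17, adjusted p = 8.52e-08, 25.5 percent shared). Each ligand was far lower in the tissue where the other was high, in all libraries. Their receptor Ptch1 was not called (-0.42, SE 0.17, adjusted p = 0.0563), the inhibitor Hhip was higher in yolk sacs (1.37, SE 0.18, adjusted p = 6.21e-05), and the transducer Smo (-2.03, SE 0.15, adjusted p = 1.38e-06) and the target Gli1 (-1.7, SE 0.21, adjusted p = 5.38e-05) were higher in embryos. Bmp6 (2.85, SE 0.14, adjusted p = 9.49e-08), Fgf1 (3.18, SE 0.19, adjusted p = 3.23e-07) and the receptor Fgfr4 (3.64, SE 0.27, adjusted p = 1.15e-06) were called higher in yolk sacs, as was Igf2r, which clears the growth factor Igf2 (1.64, SE 0.39, adjusted p = 0.00388; 0.86 and not called without embryos 1 and 3). Igf2 itself was not called (-0.34, SE 0.20, adjusted p = 0.152, 63.1 percent shared), and the receptor Igf1r was higher in embryos (-1.51, SE 0.17, adjusted p = 2.24e-05), as was Wnt5a (-2.0, SE 0.29, adjusted p = 0.000138). Bmp4 (-0.08, SE 0.20, adjusted p = 0.726), Bmp2 (-0.55, SE 0.33, adjusted p = 0.158) and Vegfa (0.44, SE 0.13, adjusted p = 0.0147) were not called. Aldh1a2, which makes retinoic acid, had 0.242, 0, 0.0792 and 0.16 in yolk sacs, against 2.43, 19.2, 29.8 and 27.8 in embryos and was lowest in embryo 1 (-4.6, SE 0.64, adjusted p = 0.000111), and Cyp26a1, which degrades it, was also higher in embryos (-2.77, SE 0.42, adjusted p = 0.000193).

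Imprinted genes, expressed from 1 parental copy and often linked to placental growth, were called higher in yolk sacs in 15 cases and in embryos in 5 of 35 tested (median 0.36). The called shares were 42.9 and 14.3 percent, against 21.6 and 13.8 percent of all tested genes. H19, a growth-restraining RNA expressed from the maternal copy, had 2377, 2469, 3972 and 2908 in yolk sacs, against 590.4, 1102, 870.5 and 1539 in embryos (1.57, SE 0.29, adjusted p = 0.000876). Phlda2, a maternally expressed restraint on placental growth, had 220.2, 204, 252 and 249.8 in yolk sacs, against 5.91, 10.3, 4.7 and 28.6 in embryos (4.52, SE 0.45, adjusted p = 9.23e-06), and its neighbour Slc22a18 had 20.6, 25.4, 26.4 and 20.9 in yolk sacs, against 0.0951, 0.894, 0.199 and 0.901 in embryos (4.64, SE 0.28, adjusted p = 3.3e-07). Sfmbt2, paternally expressed in extraembryonic tissue, had 14.6, 13.9, 6.01 and 7.45 in yolk sacs, against 0.354, 0.766, 0.567 and 0.63 in embryos (3.27, SE 0.28, adjusted p = 3.23e-06). For each of these 4 genes, H19, Phlda2, Slc22a18 and Sfmbt2, all yolk sacs were above all embryos. Tfpi2 (3.19, SE 0.17, adjusted p = 1.4e-07) and Peg10 (2.03, SE 0.17, adjusted p = 3.03e-06) were called as well, as were Dlk1 (1.27, SE 0.14, adjusted p = 2.51e-05) and Rian (1.85, SE 0.25, adjusted p = 0.000103), opposite-parent genes of 1 cluster. Dlk1 fell under the 2-fold limit after rescaling to TPM (0.99) and under quantile normalization (0.95). The opposite held for Grb10, a growth inhibitor, with 28.8, 26.2, 34.1 and 30.1 in yolk sacs, against 174, 144, 139 and 166 in embryos (-2.37, SE 0.12, adjusted p = 1.16e-07), and for Ndn (-1.53, SE 0.17, adjusted p = 2.6e-05). Peg3 (0.18, SE 0.29, adjusted p = 0.609) and Nnat (-0.93, SE 0.17, adjusted p = 0.000734) were not called, but Nnat was called higher in embryos without embryo 4 (-1.1), with FPKM as deposited (-1.06), after rescaling to TPM (-1.21) and under quantile normalization (-1.26). Shared sequence limits Snrpn (-1.49, 34.5 percent shared) and Cdkn1c (0.76, 27.2 percent shared).

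Markers of other tissues that a dissection could carry were not uniformly low. Of 25 trophoblast genes, 8 passed the filter, and the 4 called higher in yolk sacs were Peg10, Phlda2, Plac1 (1.88) and Rhox6 (4.21, 23.3 percent shared). Peg10 and Phlda2 are also in the imprinted list. The 2 called higher in embryos were Tfap2c (-2.87) and Fgfr2 (-1.6), which ectoderm also uses. Tpbpa, of the spongiotrophoblast, had 0.0286, 0.0279, 0.56 and 0 in yolk sacs, against 0, 0.0431, 0.408 and 0 in embryos. The placental hormone genes were uneven in both tissues: Prl4a1 had 1.88, 0.204, 3.48 and 0.178 in yolk sacs, against 0, 1.26, 5.08 and 0.121 in embryos, and the decidual gene Prl8a2 had 3.44, 9.64, 0.254 and 0.166 in yolk sacs, against 0, 1.08, 19.6 and 2.36 in embryos. The placental hormone gene Prl3d1 (75.2 percent shared) had 2.51, 3.13, 4.85 and 0.119 in yolk sacs, against 0, 2.42, 19.3 and 0.0603 in embryos. Embryo 3 was the highest library for Prl4a1, Prl8a2 and Prl3d1. Prl8a2 changed sign without embryo 3, and whether carried-over tissue adds to any result was not tested. Of 10 decidual genes, 7 were tested, 1 was called higher in yolk sacs, Dio3, which inactivates thyroid hormone (1.79), and 3 in embryos, Wnt4 (-2.22), Igfbp5 (-1.87) and Wnt6 (-4.09), all used in many tissues. The called shares of the 7 were 14.3 and 42.9 percent, against 21.6 and 13.8 percent of all tested genes.

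Genes of nervous system, crest and body axis were higher in embryos. Of 39 listed neural progenitor genes, 28 were tested and 27 called higher in embryos (median -3.48). Sox2, a factor of neural stem cells, had 0, 0, 0.029 and 0.0252 in yolk sacs, against 41.6, 46.5, 80.8 and 34.5 in embryos (-6.57, SE 0.23, adjusted p = 1.97e-08). Irx3 had 0.53, 0.129, 0.519 and 0.338 in yolk sacs, against 20.6, 25.1, 43.1 and 26.6 in embryos (-5.03, SE 0.24, adjusted p = 7.81e-08), and Zic2 had 0.148, 0.165, 0.207 and 0.288 in yolk sacs, against 20.8, 13.9, 20.8 and 13.7 in embryos (-4.64, SE 0.18, adjusted p = 2.61e-08). The yolk sacs were at or near 0 for all 3. Further progenitor genes called were Sox3 (-5.35), Zic1 (-4.91) and Nes (-2.75). Lmx1a, of roof plate, was the tested member not called (0.10, SE 0.22, adjusted p = 0.695). All 15 tested neuronal genes of 30 were called higher in embryos (median -2.89), with Tubb3, a neuronal tubulin, at 0.098, 0.191, 1.18 and 0.333 in yolk sacs, against 47.4, 25.6, 35.6 and 8.73 in embryos (-4.86, SE 0.49, adjusted p = 1.11e-05). Embryo 4 was the lowest embryo for Tubb3, above all yolk sacs. Among the others were Tagln3 (-4.05), Dll1 (-2.97, 17.9 percent shared) and Gap43 (-1.63). Neurog1 and Neurog2, factors that start neuron formation, were listed at 0 in all yolk sacs and had 8.78, 5.81, 10.3 and 1.22 and 4.55, 5.68, 11.8 and 3.7 in embryos 1 to 4.

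Crabp1, the cellular retinoic acid binding protein of hindbrain and crest, had 0.608, 1.11, 0.596 and 0.906 in yolk sacs, against 598, 465, 659 and 347 in embryos. It showed the largest difference toward the embryo of all tested genes of low shared sequence (-8.61, SE 0.21, adjusted p = 8.55e-09), and every embryo was more than 100-fold above every yolk sac. Other genes with large differences toward the embryo were Sfrp2 (-5.52, 13.7 percent shared), Nr2f1 (-5.43), Cyp26c1 (-5.2), Fzd10 (-5.15), Sbk1 (-5.11) and Sox11 (-5.02), a Wnt antagonist, a nuclear receptor, a retinoic acid hydroxylase, a Wnt receptor, a kinase and a neural Sox factor. Of 19 tested neural crest genes, 16 were called higher in embryos (median -3.38), among them Prrx2 (-5.09), Crabp2 (-4.84) and Sox9 (-3.95). Sox10 was listed at 0 in all yolk sacs and had 13.6, 6.3, 11.6 and 8.18 in embryos. Ets1 (-0.13, SE 0.18, adjusted p = 0.524) and Ednrb (0.29, SE 0.19, adjusted p = 0.207), which also act in vessels, and Erbb3 (-0.28, SE 0.26, adjusted p = 0.364) were not called.

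Of 26 somite genes, 13 were tested and 12 called higher in embryos (median -3.74). Meox1, a somite factor, had 0, 0, 0.0268 and 0 in yolk sacs, against 14, 22.5, 41.9 and 46.8 in embryos (-5.82, SE 0.33, adjusted p = 2.06e-07), and Lfng, a Notch modifier of segmentation, had 0.317, 0.262, 0.334 and 0.166 in yolk sacs, against 16.3, 11.1, 21 and 9.9 in embryos (-4.24, SE 0.23, adjusted p = 1.45e-07). Tcf15, Foxc1 and Foxc2, also of paraxial mesoderm, gave Tcf15 (-3.74), Foxc1 (-3.95) and Foxc2 (-4.4). Ripply1, a segmentation repressor, went the other way, at 5.57, 3.01, 4.94 and 4.22 in yolk sacs, against 0.863, 0.851, 1.79 and 2.08 in embryos (1.41, SE 0.26, adjusted p = 0.000766). All yolk sacs exceeded all embryos for Ripply1, although the difference was small beside that of Meox1.

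Heart, tail and trunk Hox genes differed among the embryos. Of 26 cardiomyocyte genes only 8 passed the filter, and of 39 Hox genes 17, since embryos 1 and 3, or embryo 1, lacked many of them. Myh6, a cardiac myosin (29.2 percent shared), had 0, 0.00885, 0 and 0 in yolk sacs, against 0.12, 23.7, 0.403 and 24 in embryos and could not be tested, and Myl7 was called (-4.89, SE 1.29, adjusted p = 0.00699). Actc1, cardiac alpha actin, had 0.716, 2.47, 4.54 and 5.45 in yolk sacs, against 6.12, 202, 8.79 and 200.3 in embryos, high in embryos 2 and 4, and was called (-3.62, SE 1.14, adjusted p = 0.017). It was -4.51, -2.84, -4.33 and -2.85 without embryos 1, 2, 3 and 4 in turn, and lost the call with no filter on low values (adjusted p = 0.0522). Called too were Nkx2-5 (-2.44), Irx4 (-1.97) and Hcn4 (-1.59), and the troponin subunits Tnnc1 (-0.55) and Tnni1 (-0.90) were not. Tnnc1 changed sign without embryo 2 (0.19) or embryo 4 (0.13). Without embryos 1 and 3 the troponins were called, at -2.76 for Tnnc1 and -2.48 for Tnni1. Without embryos 1 and 3, Myl7 could not pass a filter of 4 libraries. Cited1, listed with the heart genes but also made in extraembryonic tissue, had 129.5, 83.6, 104 and 115 in yolk sacs, against 10.3, 12, 7.58 and 17.3 in embryos and was higher in yolk sacs (3.18, SE 0.23, adjusted p = 9.89e-07). Cdx4, of the tail bud, had 0, 0.0303, 0 and 0 in yolk sacs, against 0.192, 9.73, 0.591 and 32.3 in embryos, and Fgf8, of tail bud and brain boundaries, had 0, 0.0441, 0.0885 and 0.0769 in yolk sacs, against 16.6, 13.1, 10.4 and 11.5 in embryos (-4.58, SE 0.16, adjusted p = 2.23e-08). Fgf8 was even among embryos and near 0 in yolk sacs. The cardiomyocyte median was -1.78. Of 11 tested tail bud genes 8 were called higher in embryos (median -2.78), among them Fgf17 (-3.97), Sp5 (-3.77), Lin28b (-2.78) and Greb1 (-1.5). Lin28a, an RNA-binding regulator of early development, had 149, 124, 118 and 163 in yolk sacs, against 151, 105, 103 and 165 in embryos and was not called (0.10, SE 0.18, adjusted p = 0.662), with overlapping groups. Cdx2, which trophoblast and tail bud share, had 8.77, 7.03, 8.75 and 8.72 in yolk sacs, against 0.119, 5.84, 2.29 and 27.8 in embryos and was not called (1.07, SE 0.91, adjusted p = 0.323), but was called higher in yolk sacs without embryo 4 (1.98, adjusted p = 0.0202).

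Of the 17 tested Hox genes, 9 were called higher in embryos and none in yolk sacs (median -1.95). Called members were Hoxa2 (-3.86, 13.7 percent shared), Hoxc4 (-2.93), Hoxb3 (-2.4, 52.7 percent shared) and Hoxb4 (-1.75) among others, while Hoxb8 (-1.95), Hoxc6 (-1.05) and Hoxb6 (-1.16) were not called. Without embryo 1 these 3 were called higher in embryos, at -3.17 for Hoxb8, -2.18 for Hoxc6 and -2.11 for Hoxb6. Hoxb1, of the hindbrain, had 0.105, 0, 0 and 0 in yolk sacs, against 5.59, 8.09, 9.91 and 14.8 in embryos (-4.19, SE 0.25, adjusted p = 3.16e-07). Hoxc8 was present in all yolk sacs at a level like that of embryo 4, with 9.95, 10.5, 11.9 and 13.9 in yolk sacs, against 0.342, 3.67, 7.41 and 14.6 in embryos (1.4, SE 0.71, adjusted p = 0.106). The yolk sac values spread little while those of embryos were lowest in embryo 1, and without embryo 4 it was called higher in yolk sacs (1.97). Six3 and Lhx2, of the forebrain and eye, had 9.66, 1.37, 3.48 and 0.552 and 16.9, 3.34, 9.12 and 0.769 in embryos 1 to 4 and at most 0.163 in yolk sacs, so embryo 1 was the highest and embryo 4 the lowest for both, whereas embryo 1 was the lowest and embryo 4 the highest for Hoxb1.

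**Figure D5:**
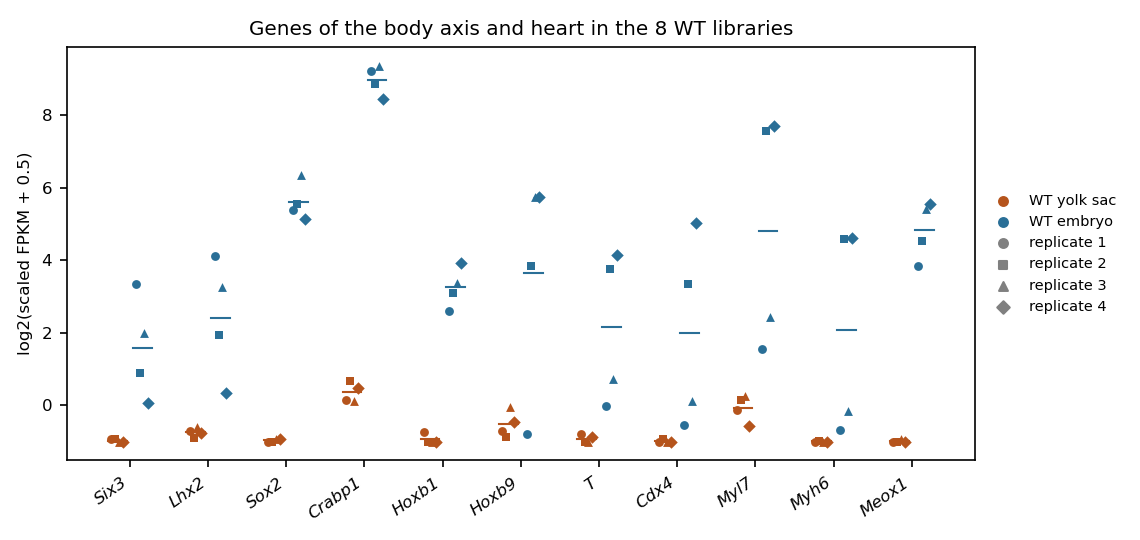
Levels of 11 genes of the body axis and heart in WT yolk sacs (left of each pair) and WT embryos (right), on log2(scaled FPKM + 0.5); symbols mark the replicate and bars the mean. Sox2, Crabp1 and Meox1 are high in all 4 embryos, whereas T, Cdx4, Myl7 and Myh6 are low in embryos 1 and 3 and Hoxb9 is near the yolk sac level in embryo 1.

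Few cell division genes were called. Of 34 tested mitosis genes, 1 was called higher in yolk sacs (Hmmr, 1.32, SE 0.15, adjusted p = 3.26e-05) and 1 in embryos (Ncapd2, -1.39, SE 0.14, adjusted p = 1.15e-05), and 32 in neither, at a median of 0.16, which became -0.11 after rescaling to TPM. Cdc20, Ube2c and Plk1 were not called, with Cdc20 (-0.34, 26.7 percent shared), Ube2c (-0.14, 25.3 percent shared) and Plk1 (-0.39, 18.7 percent shared). Mki67, the proliferation marker, had 77.7, 78.1, 60.7 and 56.7 in yolk sacs, against 34.7, 34, 37 and 44.3 in embryos and fell short of the 2-fold limit (0.85, SE 0.14, adjusted p = 0.000415). Ribosomal protein genes had a median of -0.49, with 3 of 50 called higher in embryos and none in yolk sacs, by the largest difference Rps12 (-1.58, SE 0.25, adjusted p = 0.000262, 29.8 percent shared). Most have many genomic copies, so this value carries the limit given for Rpl17. Rpl8, under the limit of shared sequence, had 634, 633, 852 and 765 in yolk sacs, against 1087, 859, 1093 and 995 in embryos (-0.49, SE 0.16, adjusted p = 0.0185). The groups did not overlap for Rpl8, but the difference was under 2-fold. Mitochondrially encoded transcripts took 2.73 to 3.02 percent of fragments in yolk sacs and 1.26 to 1.56 percent in embryos.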

How the data were processed

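The deposited values are FPKM per gene, made by the authors in 1 table per tissue and stage; the submitters' processing notes name DESeq2, GRCm38 and mm10. The aligner, the counting program and its use of strand were not stated in any label or header. Without strand, reads of a gene and an antisense partner cannot be told apart. No deposited count table was used. Times the exon length of GENCODE M21 genes, 98.3 to 98.6 percent of low FPKM values lay within 0.02 of a whole number of fragments, which gave the depths; they say nothing of how reads with several matches were placed. The 8 WT libraries were put on 1 scale with median-of-ratios factors, and log2(FPKM + 0.5) of genes at 1 FPKM or more in at least 4 libraries was fitted with limma 3.58.1 (R 4.3.3, with trend), tissue as the only term. The fit was tested on simulated data. Same-numbered yolk sacs and embryos were not treated as pairs. The percent shared is the part of a gene's 31-base words that also occurs in annotated transcripts of other genes. Promoter letters come from the RefSeq table of GRCm38.p6. The members and lists were chosen with earlier results of these data known. Named genes are the 4 markers, the 20 most abundant and 15 most different genes in each direction, and the leading called and uncalled members of each list. Of these, genes that lay close to the 2-fold limit and changed side when a library was left out were mostly left to the counts, and the other genes named were chosen after their values were seen. A few genes of these lists are not reported here by name, though the lists' counts and medians include them. Alternatives were other pseudocounts, filters, scalings, gene classes and left-out libraries.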

Additional observations from a re-analysis of the deposited data

Results flagged for a closer look

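In 33 of 560 groups of 4 libraries, over the 280 named genes tested, 1 library stood apart: its gap to the nearest other library was too large a share of the group's range for Dixon's test. Chance alone gives such a flag in about 1 of 20 groups, so this number is near what chance gives. All values are scaled FPKM.

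Among yolk sacs, replicate 1 was the highest for Npc1 (18.5), Slc38a2 (17.9), Hspg2 (31) and Hoxb1 (0.105) and the lowest for Slc40a1 (19.5). Yolk sac 2 was the lowest for Creb3l3 (36.1), Gata2 (0.938), Col4a1 (141.7), Col4a2 (78.5), Peg10 (356.9) and Cdx2 (7.03), and the highest for Cyp26c1 (0.239). Yolk sac 3 was the lowest for Apob (543) and the highest for Zic1 (0.0105), Meox1 (0.0268) and Foxc1 (0.296). Yolk sac 4 was the highest for Vil1 (103.3) and Shh (0.2; 25.5 percent shared).

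Among embryos, replicate 1 was the highest for Ephb4 (32.0) and Tfap2c (6.57) and the lowest for Lin28b (13.2), Hoxb4 (1.62) and Hoxb6 (0.247). Embryo 2 was the highest for Slc7a9 (0.653) and Isl1 (4.74). Embryo 3 was the highest for Dgat1 (7.39), Csf1r (0.406; 14.9 percent shared) and Csf2rb (2.33; 19.7 percent shared) and the lowest for Npc1 (2.39) and Hspg2 (6.63). Embryo 4 was the lowest for Cmtr2 (2.45) and Mt1 (8.13) and the highest for Cldn5 (14.4).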

How the results depend on the processing

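Under the 21 alternatives none of the 214 called named genes changed direction, 18 of the 66 named genes not called changed sign in at least 1 alternative without being called there, and 15 of the called ones lost the call in at least 1 of them; under quantile normalization 6 did. The 2729 genes called higher in yolk sacs became 1883 at a filter of 5 FPKM and 3077 with no filter, within 1.5 times. The 1737 called higher in embryos became 889 at the filter of 5 FPKM and 1011 without embryos 1 and 3. Leaving out 1 library gave 1951 to 2772 genes higher in yolk sacs and 1095 to 1765 higher in embryos; with 3 libraries left in a tissue, genes read in that tissue alone cannot meet the filter of 4 libraries, so the lower counts follow in part from fewer genes tested. Genes higher in yolk sacs made up 61.1 percent of calls, 71.6 percent without embryos 1 and 3, 52.2 percent after quantile normalization and 48.0 percent after rescaling to TPM. Genes sharing under 10 percent of their 31-base words, an alternative chosen after seeing the data, gave 1952 and 1374. With the replicate number as a block the counts were 2732 and 1747. The deviations of same-numbered yolk sacs and embryos correlated at -0.0467, 0.0922, -0.0509 and 0.0175. Deviations in 2 different tissues cannot show whether the libraries came from 1 conceptus. By Y-linked genes, the libraries numbered 2 and those numbered 3 differed in sex. The number of 4 libraries a tissue and the unknown litter limit the precision, and the separate tables limit every level set across tissues.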

Other observations

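The knockout libraries of the same 2 tables give the tissue contrast in other samples. Of the 2729 genes called higher in WT yolk sacs, 2591 could be tested in knockout libraries, and 2581 (99.6 percent) had the same sign. Of the 1737 called higher in WT embryos, 1621 could be tested and 1609 (99.3 percent) had the same sign. Over all tested genes the same sign was seen for 86.0 percent of 12064. Table and tissue cannot be told apart in these libraries either. Gapdh was -8.79 in knockout and -7.90 in WT libraries, and Rpl17-ps3 was 5.89 and 5.67.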
